A study of Mus musculus with 4 samples.

Results

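The transcripts of the mitochondrial genome were the 37 genes whose symbol starts with mt-, out of 38924 genes in the count tables. They comprise 2 rRNA genes, 13 protein-coding genes and 22 tRNA genes of chromosome M. Because overlapping genes on the same strand were counted as 1 merged entry (a row), the 37 genes stood in 31 of 37718 rows. The 5 merged rows held 11 of the genes: mt-Nd1 with mt-Ti, mt-Nd2 with mt-Tw, mt-Atp8 with mt-Atp6 and mt-Co3, mt-Nd4 with mt-Nd4l, and mt-Ts2 with mt-Tl2. This left 2 rRNA rows, 10 mRNA rows and 19 tRNA rows, with mt-Ti and mt-Tw inside mRNA rows.

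Total RNA was sequenced from testis cells of mice at 20 days post partum, with 2 samples of Tdrd6+/- and 2 of Tdrd6-/-, each pooled from at least 4 mice. TDRD6 is a multi-Tudor domain protein of male germ cells, and the Tdrd6+/- samples served as controls. In both genotypes the cells were pulled out with magnetic beads against human CD4 (hCD4), which was expressed from the Tdrd6 promoter, so the material was enriched for late prophase I spermatocytes (diplotene) but was not pure. The comparison asks how the RNA of these cells differs when TDRD6 is missing. Because each group had only 2 pools, p-values rest on the spread between these samples alone, which the gene-level test pools in part over genes.

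Mammalian mitochondrial DNA is a small circle that is transcribed from both strands into long precursors. Most genes are read from one strand as a polycistronic RNA, in which tRNAs lie between the rRNAs and mRNAs and are cut out to release them, while mt-Nd6 and a set of tRNAs are read from the opposite strand. The mRNAs encode subunits of complexes I, III and IV and of the ATP synthase, the rRNAs build the mitochondrial ribosome, and every protein needed for replication, transcription and RNA maturation is imported from the nucleus.

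The 4 samples had 26454326 to 31388750 gene counts, and Tdrd6 itself, the check of the labels, was at 1269 and 1412 CPM (counts per 1000000, with TMM-adjusted library sizes) in Tdrd6+/- and at 11.4 and 12.5 CPM in Tdrd6-/-. Marker sums are given in CPM of gene counts without TMM adjustment. Summed spermatocyte markers (6 of 6 found) ranged from 1524 to 1847 CPM and overlapped, but the sum was carried by Piwil1. By edgeR's test 3 of the 6 passed: Piwil1 was lower in Tdrd6-/- (log2 fold change -0.44), and Sycp1 (0.60) and Spag6 (0.79, counted with an overlapping gene) were higher. The 6 round spermatid markers, none of which was at 0 in all samples, summed to 5.93 and 8.61 CPM in Tdrd6+/- and to 14.2 and 13.03 CPM in Tdrd6-/-, so this list moved with genotype, although it stayed far under the spermatocyte level. Of these 6 only Acrv1 and Izumo1 (counted with Rasip1) had enough counts to be tested, and Acrv1 passed (log2 fold change 0.96). Summed markers of Sertoli cells (28.03 to 38.3 CPM), macrophages (2.68 to 5.45 CPM) and red blood cells (0.287 to 0.567 CPM) overlapped between the genotypes. Spermatogonium markers did not, at 15.0 and 15.6 CPM in Tdrd6+/- and at 19.5 and 20.3 CPM in Tdrd6-/-. Leydig cell markers (Insl3 counted with Jak3) were at 17.0 and 20.17 CPM in Tdrd6+/- and at 22.9 and 20.2 CPM in Tdrd6-/-. The closest Leydig sums were thus nearly equal, and with TMM-adjusted library sizes the Leydig sums overlapped. By edgeR's test 0 of the 5 spermatogonium markers and 0 of the 5 Leydig cell markers passed. The share of tallied fragments in introns was 30.95% and 27.1% in Tdrd6+/- and 27.4% and 21.9% in Tdrd6-/-, with the lowest value in Tdrd6-/- replicate 2. The part of cell makeup and of these library differences in the mitochondrial results was not tested.

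Several mitochondrial genes have near-identical copies in the nuclear genome, and these bear on which rows can be read. Copies of at least 99% identity were searched among the GENCODE M21 transcripts, but any matches on 1 other nuclear chromosome were left out beforehand. In the rest the search found 7 pseudogenes, all on the minus strand of chromosome 1 of mm10 between 24611535 and 24616197. They were Gm29216 (the last 483 bases of mt-Co1), Gm28661 (mt-Co2), Gm10925 (mt-Atp6), Gm28437 (mt-Co3), Gm28438 (mt-Nd3), Gm10222 (mt-Nd4l) and Gm28439 (the first 876 bases of mt-Nd4). Of the copies, 5 had no mismatch and 2 had 1 mismatch over the aligned bases. They follow each other in the same order as the mitochondrial genes, and 5 of the 6 spacings between neighbours equal those in mitochondrial DNA to the base. Only Gm10222 had a row in the count tables, with 0 and 1 counts in Tdrd6+/- and 2 and 0 in Tdrd6-/-.

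The first 90 bases of mt-Co2 (chrM:7013-7102, plus strand) are shown as a stretch with no difference from Gm28661, so a fragment within it cannot be placed by sequence.
mt-Co2: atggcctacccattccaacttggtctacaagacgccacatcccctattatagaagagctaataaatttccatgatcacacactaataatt

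The start of mt-Nd3 (chrM:9459-9491, plus strand) holds the only mismatch to its copy Gm28438 (chr1:24612775-24613119), T3C, counted from 1 at the first base of the mitochondrial gene and marked by capitals.
mt-Nd3: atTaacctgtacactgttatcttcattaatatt
Gm28438: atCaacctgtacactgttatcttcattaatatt

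The region of mt-Co1 where its copies begin to overlap (chrM:6390-6438, plus strand, from base 1063 of the gene) shows the only mismatch to Gm29216 (chr1:24615706-24616197), A1066T, and 1 of the 37 mismatches to Gm13340 (chr2:22588103-22589647), T1072C. Capitals mark these bases.
mt-Co1: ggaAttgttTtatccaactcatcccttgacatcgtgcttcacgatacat
Gm29216: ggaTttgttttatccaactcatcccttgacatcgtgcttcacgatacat
Gm13340: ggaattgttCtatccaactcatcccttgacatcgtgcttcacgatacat

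Gm13340, named after its values were seen, copies all 1545 bases of mt-Co1 at 97.6% identity and had counts of its own: 34 and 37 in Tdrd6+/- and 23 and 41 in Tdrd6-/-. On the same part of chromosome 2, Gm13341 (95.9% identical to mt-Co2) had 11 and 10 counts in Tdrd6+/- and 3 and 14 in Tdrd6-/-. Both stayed far below the mt-Co1 row, which had 48594 to 56854 counts in a sample, and both overlapped between the genotypes.

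The 3 mRNA rows with 89.9% or more of their bases in a copy were nearly empty. mt-Co2, the second subunit of cytochrome c oxidase, had 3 and 6 counts in Tdrd6+/- and 2 and 6 in Tdrd6-/-. The row of mt-Atp8 and mt-Atp6, both ATP synthase subunits, and mt-Co3, the third cytochrome c oxidase subunit, had 10 and 4 counts in Tdrd6+/- and 4 and 5 in Tdrd6-/-. mt-Nd3, a complex I subunit, had 0 and 0 counts in Tdrd6+/- and 3 and 1 in Tdrd6-/-. No genotype difference can be read at these depths, where a count of 0 allows up to 0.0956 to 0.113 CPM before TMM scaling (3 counts per library). Apart from the 43 bases that it shares with mt-Atp6, which lie in Gm10925, no copy of mt-Atp8 was found among the transcripts searched. Yet the first segment of its row, which is mt-Atp8 alone in chromosome order, had 1 and 0 counts in Tdrd6+/- and 0 and 0 in Tdrd6-/-. The genome sequence between the pseudogenes was not used here. The 5 mRNA rows for which no copy of at least 99% identity was found had 310 to 5734 counts in each sample.

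In the row of mt-Nd4 and mt-Nd4l, complex I subunits with 69.9% of their joint bases in a copy, every fragment fell on the last of 3 exon segments: 1942 and 2973 counts in Tdrd6+/- and 1708 and 1355 in Tdrd6-/-. The first 2 segments, which hold mt-Nd4l if the segments are numbered along the chromosome, were at 0 in all 4 samples. With that numbering, all counts of this row came from mt-Nd4. The files give no segment positions, and how fragments with several possible positions were counted is not given in the sources used here, so the part of the copies in these low counts was not tested.

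**Figure D1:**
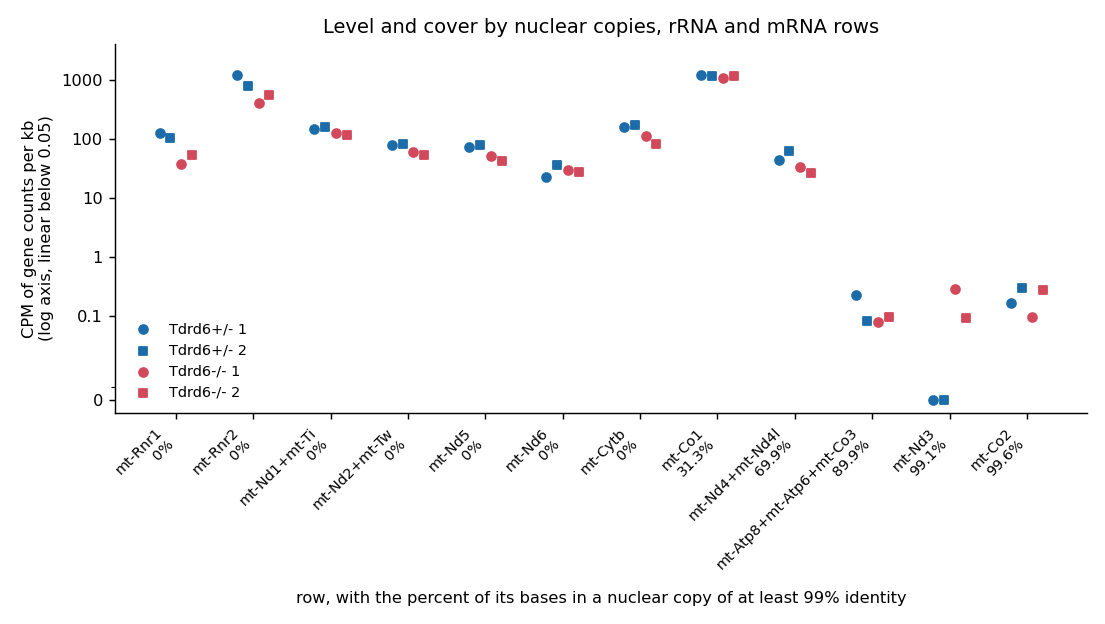
Level of the 12 rRNA and mRNA rows in CPM of gene counts per kb of row (log axis, linear below 0.05), by sample, ordered by the percent of the row's bases in a nuclear copy of at least 99% identity. The rows at 89.9% or more lie under 1 CPM per kb, while all rows at 69.9% or less lie above 20 CPM per kb.

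The 43 bases shared by mt-Atp8 and mt-Atp6 (chrM:7927-7969, plus strand) are given as an example of the overlaps that join genes in the merged rows.
mt-Atp8 and mt-Atp6: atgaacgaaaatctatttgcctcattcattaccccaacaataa
By comparison, mt-Nd5 and mt-Nd6 share 14 bases on opposite strands and had separate rows, so the rows kept the strands apart. The libraries were made with a directional kit, but the strand setting of the count is not given in the sources used here. None of the 31 rows had an entry for introns or junctions.

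The tRNA rows were close to empty in every sample. Together the 19 rows had 30 and 16 counts in Tdrd6+/- and 22 and 16 in Tdrd6-/-, and 12 of them were at 0 in all samples. Of the 84 counts, 77 fell on the 8 tRNA genes of the light strand (minus in the annotation), and 7 fell on the heavy-strand rows, all on mt-Tt. The tRNA genes were 59 to 75 bases long.

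The tRNA genes with the most counts were mt-Tp (tRNA-Pro, chrM:15356-15422, minus strand) and mt-Tq (tRNA-Gln, chrM:3772-3842, minus strand), shown here in full.
mt-Tp: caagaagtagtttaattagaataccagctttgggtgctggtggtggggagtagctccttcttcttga
mt-Tq: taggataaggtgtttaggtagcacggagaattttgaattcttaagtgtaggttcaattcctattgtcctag

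mt-Tp had 19 and 10 counts in Tdrd6+/- and 8 and 6 in Tdrd6-/-, and mt-Tq had 3 and 5 in Tdrd6+/- and 5 and 6 in Tdrd6-/-. mt-Ta, mt-Tc, mt-Ty, mt-Te and mt-Tt had at most 4 counts in any sample. As a share of mitochondrial counts, tRNA rows made up 0.0253% and 0.0142% in Tdrd6+/- and 0.0257% and 0.0163% in Tdrd6-/-, with Wilson 95% intervals from 0.00872% to 0.0389% over the 4 samples. These groups overlapped (difference of means 0.00123 percentage points, two-sided exact permutation p = 0.667, n = 2 and 2).

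The tRNAs inside merged mRNA rows had a segment of their own, but a fragment could be counted on several segments. The first segment, the mRNA in chromosome order, held every fragment of the mt-Nd1 row. In the mt-Nd2 row it held 99.4% and 99.6% in Tdrd6+/- and 99.4% and 99.3% in Tdrd6-/-. Thus all fragments on mt-Ti and most on mt-Tw also touched the mRNA, and their counts are not levels of separate tRNAs. The last segment of the mt-Nd1 row, which is mt-Ti in chromosome order, had 19 and 17 counts in Tdrd6+/- and 12 and 6 in Tdrd6-/-. It took 0.486% and 0.353% of the row in Tdrd6+/- and 0.312% and 0.161% in Tdrd6-/-. The last segment of the mt-Nd2 row, mt-Tw in chromosome order, had 66 and 48 counts in Tdrd6+/- and 38 and 61 in Tdrd6-/-, or 2.90% and 1.79% against 1.88% and 3.36% of the row. The mt-Ti shares did not overlap between genotypes but their Wilson 95% intervals did (0.220% to 0.757% against 0.0740% to 0.545%), and the mt-Tw shares overlapped. These intervals, like all others given here, cover counting error only.

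**Figure D2:**
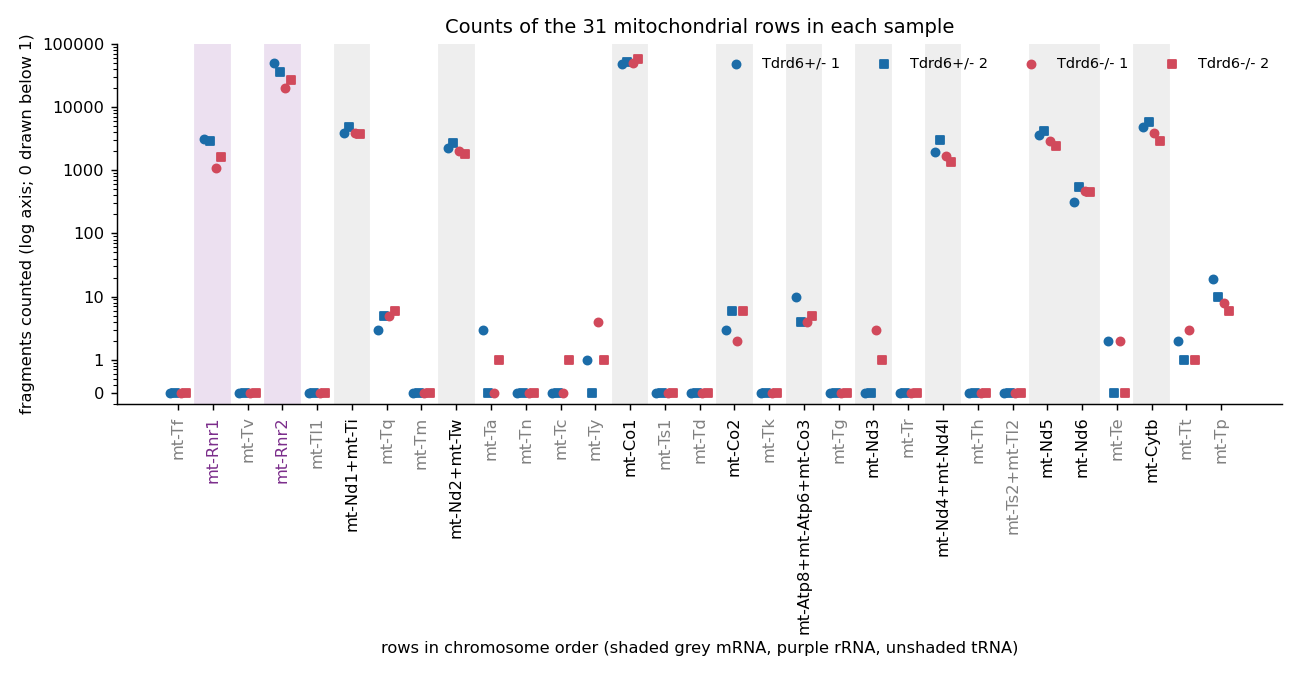
Number of fragments counted on each of the 31 mitochondrial rows in chromosome order (log axis, with 0 drawn below 1), for the 4 samples. Counts ran from 0 on 12 tRNA rows to 56854 on mt-Co1, and the rRNA rows show the widest gap between the genotypes among the high rows.

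Among the rows that were measured well, mt-Co1 and mt-Rnr2 dominated. Together they made up 78.8% to 85.4% of the mitochondrial counts in each sample. mt-Co1, the catalytic subunit of cytochrome c oxidase, ranked between 23 and 28 of all 37718 rows by count, whereas the rank of mt-Rnr2, the large-subunit rRNA (16S), was 23 and 53 in Tdrd6+/- and 206 and 112 in Tdrd6-/-.

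On the scale of CPM per kb, the order of levels in Tdrd6+/- was mt-Co1 (1211 ± 13.7), mt-Rnr2 (1013 ± 266), mt-Cytb (171 ± 12.2), mt-Nd1 with mt-Ti (157 ± 16.4), mt-Rnr1 (119 ± 11.7), mt-Nd2 with mt-Tw (83.0 ± 5.84), mt-Nd5 (79.1 ± 6.40), mt-Nd4 with mt-Nd4l (54.2 ± 13.8), mt-Nd6 (30.3 ± 10.6) and mt-Tp (8.09 ± 3.87; SD, n = 2). mt-Cytb and mt-Nd1 overlapped in this order, as did mt-Nd2 and mt-Nd5, and mt-Co1 and mt-Rnr2 were both at 1201 CPM per kb in replicate 1. In Tdrd6-/- the order began with mt-Co1 (1086 ± 89.7), mt-Rnr2 (464 ± 98.5) and mt-Nd1 with mt-Ti (116 ± 3.798), and mt-Rnr1 (44.5 ± 11.6) lay at the level of mt-Nd5 (45.8 ± 5.51; SD, n = 2). The length used for mt-Co1 and mt-Nd4 includes bases in nuclear copies. With the length outside the copies alone, the mean over all samples was 1668 CPM per kb for mt-Co1 and 137 CPM per kb for the mt-Nd4 row. Both values are before TMM scaling. They take every fragment to lie outside the copies, which was not tested.

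A smaller share of the fragments came from the mitochondrial genome in the Tdrd6-/- samples. The mitochondrial share of all gene counts was 0.448% (Wilson 95% interval 0.445% to 0.450%) and 0.386% (0.384% to 0.388%) in Tdrd6+/- and 0.281% (0.279% to 0.283%) and 0.313% (0.311% to 0.315%) in Tdrd6-/-. Both Tdrd6-/- samples lay under both Tdrd6+/- samples, and the means were 0.417 ± 0.0437% and 0.297 ± 0.0227% (SD, n = 2 each; difference -0.1198 percentage points). As a share of all tallied fragments, introns included, the values were 0.263% and 0.2497% against 0.181% and 0.224%, which also did not overlap. For the share of gene counts, the two-sided exact permutation test gave p = 0.333, the smallest value that 2 against 2 samples allow. In such bulk samples, fewer mitochondrial transcripts per cell and a change in the cells collected cannot be told apart.

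Most of this difference lay in the rRNA rows. rRNA took 0.2001% and 0.134% of all gene counts in Tdrd6+/- and 0.0684% and 0.0913% in Tdrd6-/-. The mRNA rows took 0.248% and 0.251% in Tdrd6+/- and 0.213% and 0.222% in Tdrd6-/-. Without the rRNA genes in either part of the fraction, the difference in the mitochondrial share was -0.0327 percentage points in place of -0.1198. Within the mRNA, mt-Co1 made up 74.2% and 71.4% in Tdrd6+/- and 77.1% and 81.7% in Tdrd6-/-. The other mRNA rows together were at 0.0639% and 0.0718% of gene counts in Tdrd6+/- and 0.0486% and 0.0406% in Tdrd6-/-.

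Seen within the mitochondrial counts, the rRNA share was 44.7% and 34.8% in Tdrd6+/- and 24.3% and 29.2% in Tdrd6-/-. The genotypes did not overlap (means 39.8 ± 6.97% and 26.7 ± 3.41%, SD, n = 2 each, difference -13.01 percentage points, two-sided exact permutation p = 0.333). However, the 2 Tdrd6+/- samples differed from each other by more than the closest pair across genotypes. Without Tdrd6-/- replicate 1 or Tdrd6+/- replicate 1 the difference was -10.6 or -8.08 percentage points. The libraries had been depleted of rRNA with a kit before sequencing, so these are levels after depletion, and a difference in depletion and a difference in the cells cannot be told apart. The 178 rows of 5S rRNA genes, another rRNA but one transcribed in the nucleus, had 21 and 27 counts in Tdrd6+/- and 32 and 26 in Tdrd6-/-, too few to describe depletion.

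**Figure D3:**
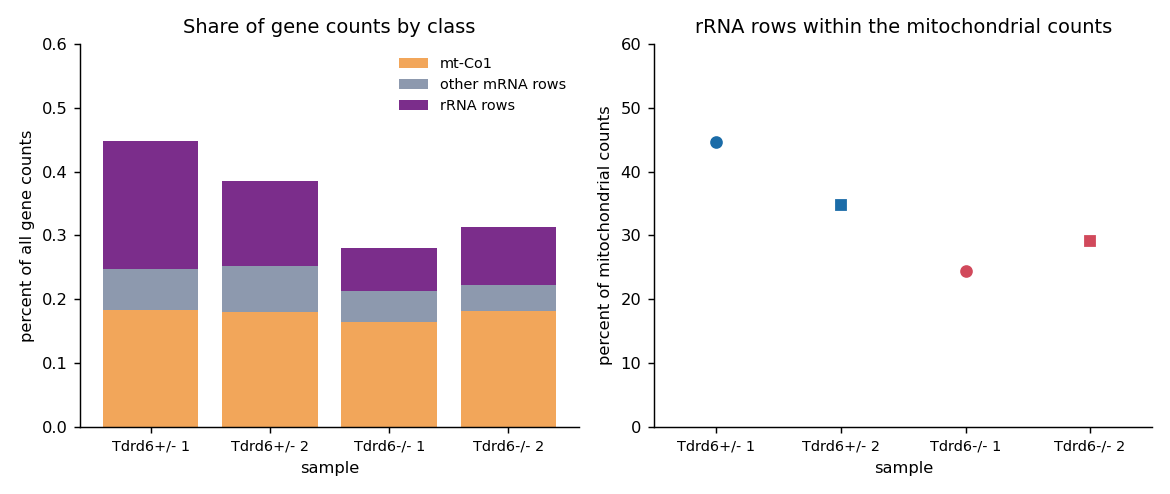
Left, percent of all gene counts on mt-Co1, the other mRNA rows and the rRNA rows in each sample (stacked bars; tRNA rows are too small to draw). Right, percent of the mitochondrial counts on the rRNA rows in each sample (Wilson 95% intervals, smaller than the symbols); the Tdrd6-/- samples, at 24.3% and 29.2%, lie under the Tdrd6+/- samples, at 44.7% and 34.8%.

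To test the rows one by one, edgeR's quasi-likelihood test was run over all genes with a false discovery rate of 0.1. Of 16555 genes tested, 4.8% passed, 1.02% with a higher level in Tdrd6-/- and 3.78% with a lower one. 10 of the 31 mitochondrial rows had enough counts to be tested, and the 21 others, with 85 counts in all and at most 10 in a sample, were not. Of the 10 tested, 7 were lower in Tdrd6-/- and 0 were higher, and the other 3 had negative fold changes that did not pass. The median log2 fold change of the 10 was -0.83, against 0.01 over all genes tested. In 9 of the 10 rows, all of them lower in Tdrd6-/-, the samples of the genotypes did not overlap, which held for 43.5% of all genes tested and, with the lower level in Tdrd6-/-, for 23.4%. Without TMM adjustment the genotypes also overlapped for mt-Co1. Of the 9, mt-Tp passed the filter on low counts only through its Tdrd6+/- samples (19 and 10 counts, against 8 and 6 in Tdrd6-/-). A lower level of mt-Tp in Tdrd6-/- was thus favoured by its entry into the test, and the counts and median above include it. With single samples left out, 5 to 7 rows passed. With no filter on low counts, where 75 genes in all passed in place of 794, mt-Rnr1 alone was called, and with the merged rows left out, 4 rows passed.

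Both rRNAs were lower. mt-Rnr1, the small-subunit rRNA (12S), was at 121 and 105 CPM in Tdrd6+/- and at 34.7 and 50.3 CPM in Tdrd6-/-. The gap between the genotypes was wider than that within either, with a log2 fold change of -1.41 (standard error 0.16, edgeR adjusted p = 2.39e-05), the most negative of the tested rows. mt-Rnr2 was at 1900 and 1306 CPM in Tdrd6+/- and at 624.5 and 845 CPM in Tdrd6-/- (log2 fold change -1.13, standard error 0.17, edgeR adjusted p = 0.000269). Without Tdrd6+/- replicate 1, its highest sample, the log2 fold change was -0.82 (edgeR adjusted p = 0.00352).

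Both rRNAs are cut from a shared precursor, and their ratio was compared as well. Per kb, mt-Rnr2 exceeded mt-Rnr1 by 9.48 and 7.49 times in Tdrd6+/- and by 10.9 and 10.1 times in Tdrd6-/-. As log2 ratios these were 3.24 and 2.91 against 3.44 and 3.34, which do not overlap (difference 0.32, two-sided exact permutation p = 0.333, n = 2 and 2). Leaving out Tdrd6+/- replicate 2 reduced the difference to 0.15, and leaving out Tdrd6+/- replicate 1 raised it to 0.49, so the size of this difference moved with the control that was left out.

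Of the complex I mRNAs, 4 rows read from the heavy strand were lower in Tdrd6-/-. mt-Nd4 (with mt-Nd4l), a membrane-arm subunit, was at 74.2 and 107 CPM in Tdrd6+/- and at 54.0 and 42.3 CPM in Tdrd6-/- (log2 fold change -0.91, standard error 0.17, edgeR adjusted p = 0.00244). mt-Nd5, a further membrane-arm subunit, was at 136 and 152.5 CPM in Tdrd6+/- and at 90.7 and 76.5 CPM in Tdrd6-/- (log2 fold change -0.79, standard error 0.14, edgeR adjusted p = 0.0015). In both rows every Tdrd6-/- sample lay under every Tdrd6+/- sample.

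The rows of mt-Nd2 and mt-Nd1, also membrane-arm subunits, were lower by less. The mt-Nd2 row (with mt-Tw) was at 87.0 and 96.1 CPM in Tdrd6+/- and at 63.9 and 56.8 CPM in Tdrd6-/- (log2 fold change -0.60, standard error 0.14, edgeR adjusted p = 0.0158). The mt-Nd1 row (with mt-Ti) was at 149 and 173 CPM in Tdrd6+/- and at 122 and 116 CPM in Tdrd6-/- (log2 fold change -0.44, standard error 0.13, edgeR adjusted p = 0.0771). These calls depended on single samples. Without Tdrd6-/- replicate 2, where calls over all genes fell from 794 to 257, the edgeR adjusted p was 0.375 for mt-Nd2 (log2 fold change -0.51) and 0.618 for mt-Nd1, and mt-Nd1 also missed the threshold without Tdrd6-/- replicate 1 (0.246) and without Tdrd6+/- replicate 2 (0.188), with log2 fold changes between -0.53 and -0.33 over all samples left out. With a filter of at least 10 counts in total, mt-Nd1 missed it as well (0.107).

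The complex III subunit mt-Cytb, or cytochrome b, was at 186 and 206 CPM in Tdrd6+/- and at 123 and 92.0 CPM in Tdrd6-/-. Its log2 fold change was -0.87 (standard error 0.14, edgeR adjusted p = 0.000973) and stayed between -1.09 and -0.66 when single samples were left out. As a percentage of the mt-Co1 count in the same sample, mt-Cytb was at 10.03% and 10.9% in Tdrd6+/- and at 7.79% and 5.18% in Tdrd6-/-.

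In contrast, mt-Co1 did not pass the test. It was at 1856 and 1886 CPM in Tdrd6+/- and at 1580 and 1776 CPM in Tdrd6-/-, so the genotypes lay close to each other without overlap (log2 fold change -0.16, standard error 0.13, edgeR adjusted p = 0.673). Per 1000000 gene counts without TMM adjustment, the mt-Co1 values were 1837 and 1796 against 1639 and 1811 and did overlap. The only mRNA of the light strand, mt-Nd6, a complex I subunit, was at 11.8 and 19.6 CPM in Tdrd6+/- and at 15.0 and 13.9 CPM in Tdrd6-/-. Here both Tdrd6-/- samples lay between the controls (log2 fold change -0.12, standard error 0.22, edgeR adjusted p = 0.875), and without Tdrd6+/- replicate 2 the sign turned (0.29). A p above the threshold does not show that these levels were equal.

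mt-Nd6 was also read as a share of the mitochondrial mRNA. This light-strand share was 0.473% and 0.744% in Tdrd6+/- and 0.733% and 0.639% in Tdrd6-/-, which overlap (difference of means 0.0778 percentage points, two-sided exact permutation p = 1, n = 2 and 2). The only tRNA row that could be tested, mt-Tp, likewise of the light strand, was at 0.726 and 0.359 CPM in Tdrd6+/- and at 0.253 and 0.188 CPM in Tdrd6-/- (log2 fold change -1.28, standard error 0.57, edgeR adjusted p = 0.306). Without Tdrd6+/- replicate 1 or 2 its log2 fold change was -0.68 or -1.70. The mt-Tp row entered the test only through its Tdrd6+/- samples, so its direction carries no weight.

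The log2 fold changes of all tested mitochondrial rows were negative, although they differed in size. The rows were therefore also tested with the total mitochondrial mRNA as library size, which measures each row against that pool. mt-Co1 makes up most of this pool, so the comparison is close to one with mt-Co1. Under this scaling the median log2 fold change of all genes moved to 0.30, with 2824 genes higher and 237 lower, against 169 and 625 in the test above. On this scale mt-Rnr1 (-1.14), mt-Rnr2 (-0.86), mt-Nd4 (-0.61), mt-Cytb (-0.57) and mt-Nd5 (-0.50) were still lower in Tdrd6-/-, with edgeR adjusted p between 0.00471 and 0.0448. The log2 fold changes of mt-Nd2 (-0.31) and mt-Nd1 (-0.15) did not pass, and those of mt-Co1 (0.13) and mt-Nd6 (0.17) turned to positive values that did not pass. Thus the rRNA rows, mt-Nd4, mt-Cytb and mt-Nd5 were lower relative to a pool made up mostly of mt-Co1. Whether the fold changes of the rows were equal was not tested.

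**Figure D4:**
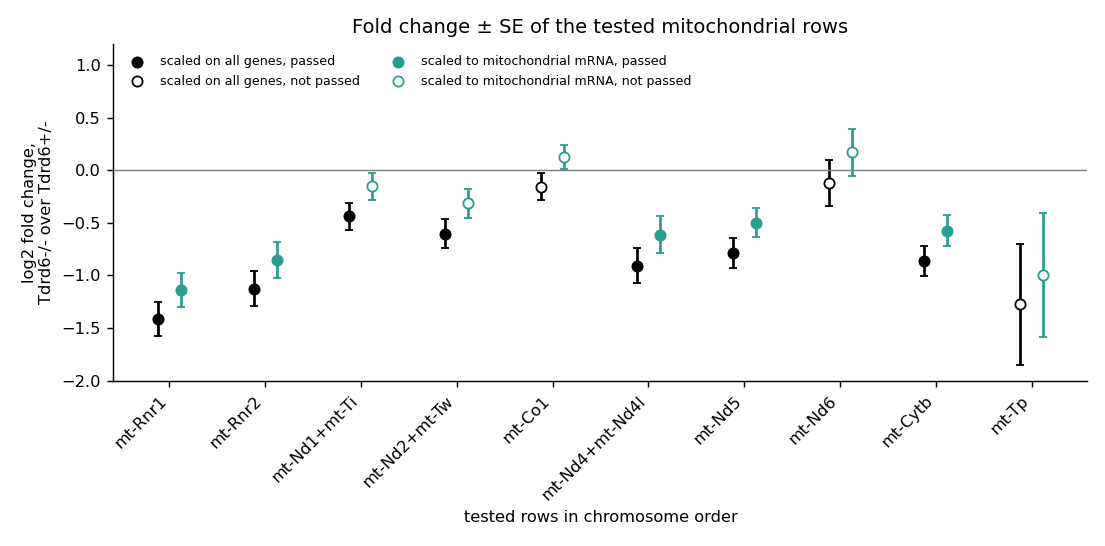
Log2 fold change of Tdrd6-/- over Tdrd6+/- (± standard error) for the 10 tested rows in chromosome order, scaled on all genes (black) and to mitochondrial mRNA (green); filled symbols passed a false discovery rate of 0.1. The rRNA rows lie lowest among those that passed (-1.41 and -1.13 on all genes), and mt-Co1 and mt-Nd6 lie nearest to 0 on the first scale and above 0 on the second.

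The nuclear genes that maintain mitochondrial DNA and make, process and degrade its RNA were read from a list of 50, all of which were found and tested. By edgeR 0 of the 50 passed in either direction, where 4.8% of all genes did, 3 of the 50 had an unadjusted p below 0.05, against 2316 of all 16555 genes tested, and DESeq2 also called 0. The log2 fold changes ran from -0.24 to 0.65 with a median of 0.03, and 32 were positive and 18 negative. The median was 0.04 over 11 genes of DNA maintenance, 0.07 over 11 of transcription, 0.02 over 20 of RNA processing and -0.02 over 8 of RNA stability and decay.

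Polrmt, the mitochondrial RNA polymerase, was at 37.4 and 40.4 CPM in Tdrd6+/- and at 34.3 and 40.3 CPM in Tdrd6-/- (log2 fold change -0.06, standard error 0.16). Tfam, which packages mitochondrial DNA and starts its transcription, was at 10.1 and 7.43 CPM in Tdrd6+/- and at 8.41 and 8.34 CPM in Tdrd6-/- (log2 fold change -0.07, standard error 0.22). In both genes the genotypes overlapped.

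Lrpprc, which stabilizes mitochondrial mRNAs, was at 145 and 116 CPM in Tdrd6+/- and at 118 and 130.3 CPM in Tdrd6-/- (log2 fold change -0.07, standard error 0.14). Elac2, the nuclease that cuts the 3′ ends of mitochondrial tRNAs, was at 87.5 and 95.8 CPM in Tdrd6+/- and at 90.03 and 96.5 CPM in Tdrd6-/- (log2 fold change 0.03, standard error 0.13). These levels overlapped too. The sign of each of these 4 log2 fold changes turned when single samples were left out.

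**Figure D5:**
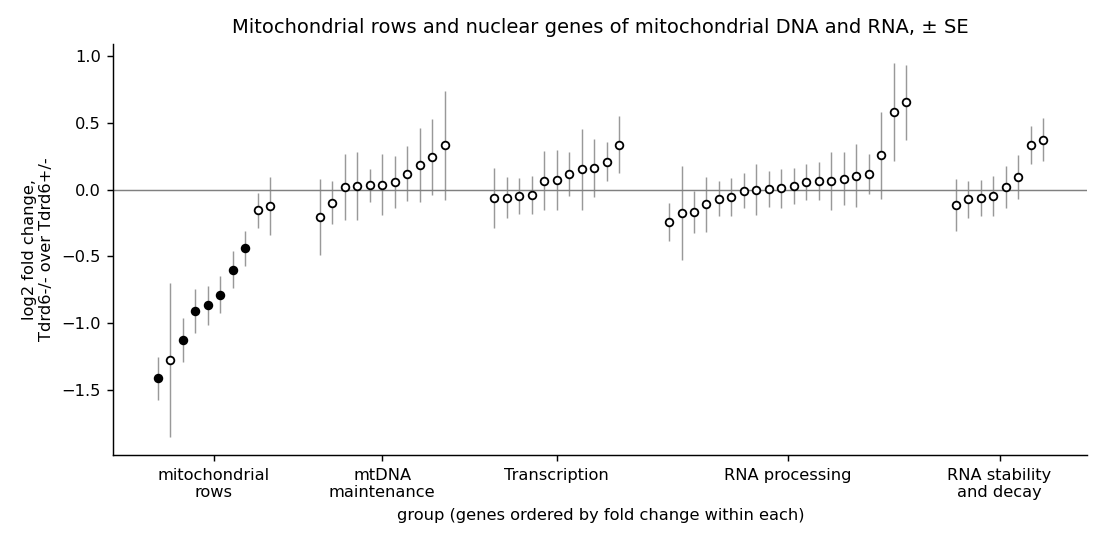
Log2 fold change of Tdrd6-/- over Tdrd6+/- (± standard error) for the 10 tested mitochondrial rows and the 50 nuclear genes in 4 groups, ordered by value within each; filled symbols passed a false discovery rate of 0.1. Filled symbols appear only among the mitochondrial rows (7 of 10), and the nuclear genes lie between -0.24 and 0.65.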

How the data were processed

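The authors prepared directional libraries from rRNA-depleted total RNA, demultiplexed them with bcl2fastq 1.8.4 (per the labels), mapped the fragments with GSNAP (mm10) and used the Ensembl 75 annotation. They deposited raw counts per gene, exon segment, junction and intron for each sample. The counting program is not given in the sources used here. Symbols and positions came from GENCODE M21.

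Gene counts of all 4 samples were fitted with edgeR 4.0.16 in R 4.3.3 (TMM, filterByExpr, quasi-likelihood test, Benjamini-Hochberg adjustment over all genes tested, false discovery rate 0.1). DESeq2 1.42.0 was an alternative. Shares and ratios were compared with exact permutation tests, which cannot go below p = 0.33 here. Nuclear copies were searched with BLAST+ 2.17.0 (at least 50 aligned bases), and not on every nuclear chromosome. The script was tested on simulated counts. Named are all mitochondrial rows, list genes that passed, Polrmt, Tfam, Lrpprc, Elac2, Tdrd6, and near-identical copies with 10 or more counts (none). The members and lists were chosen with earlier results of these data known. The depth of 26454326 to 31388750 counts per sample makes counting error small on high rows.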

Additional observations from a re-analysis of the deposited data

How the results depend on the processing

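The mitochondrial rows called lower numbered 7 in the main test, 5 to 7 when single samples were left out, 7 with a replicate block, 7 with DESeq2, 6 at a false discovery rate of 0.05, 5 when scaled to mitochondrial mRNA, 4 with single-gene rows only (merged rows are then not tested) and 1 (mt-Rnr1) with no filter on low counts. Among all genes, 794 calls became 75 with no filter, 257 without Tdrd6-/- replicate 2 and 3061 when scaled to mitochondrial mRNA; the cause was not tested. The nuclear list had 0 calls in all settings other than the scaling to mitochondrial mRNA, where 6 were higher.

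Same-numbered samples did not deviate together (correlation -0.118 over 12347 genes), so the replicate block is given only here. It changed no mitochondrial call, and 1046 genes passed with it. A crossed replicate block, chosen after seeing the data, gave 7 mitochondrial calls and 1175 in all.

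Direction turned when scaled to mitochondrial mRNA for the log2 fold changes of mt-Co1 (0.13), mt-Nd6 (0.17), Polrmt (0.22), Tfam (0.21) and Lrpprc (0.20), where the median of all genes was 0.30. With single samples left out, the log2 fold change ranged from -0.43 to 0.29 for mt-Nd6, -0.17 to 0.051 for Polrmt, -0.27 to 0.18 for Tfam, -0.22 to 0.10 for Lrpprc and -0.027 to 0.095 for Elac2, and from -1.70 to -0.68 for mt-Tp. The tRNA share difference was -0.0053 percentage points without the rRNA genes and ranged from -0.00434 to 0.00681 with single samples left out, and the light-strand share difference ranged from -0.0573 to 0.213. Differences of the mitochondrial share and the rRNA share kept their sign in the settings that changed what was counted. Because the genotypes did not overlap in these shares or in the rRNA ratio, leaving out single samples could not turn the sign. Nor could the replicate block, which gives the same difference of means. For the rRNA ratio, leaving out the length correction shifts every sample equally, so no setting could turn its sign. Low counts limit the tRNA rows and the rows covered by nuclear copies, and the cause of these low counts was not tested.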
